A study of Mus musculus with 28 samples.

Results

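A set of 10 genes of redox defence and of the NADPH oxidases was followed here in cultured small-intestinal epithelium given single ligands of the Tgfb superfamily. They were picked by gene name and are the glutathione peroxidases Gpx1, Gpx2 and Gpx4, the quinone reductase Nqo1, the haem oxygenase Hmox1, the glutathione synthesis subunit Gclc, the thioredoxin reductase Txnrd1, and the oxidase genes Nox1, Duox2 and Duoxa2. All 10 of 10 were found, each as 1 row, among the 29413 genes of the table for the Bmp ligands and among the 55416 genes of the table for Tgfb. The cultures were organoids, closed epithelial structures grown from intestinal crypts of wild-type C57BL/6 mice. Every group, controls included, began in ENR medium that held neither Bmp nor Tgfb, and the treated ones then received 1 recombinant ligand at 500 ng/ml for 24 h. The Bmp table held 4 untreated controls and 4 samples with Bmp2 (replicates II, III, IV and VI in both), 3 with Bmp3 (II, III and IV), and 3 each with Bmp4, Bmp5 or Bmp7 (II, III and VI). For Tgfb there were 3 untreated and 3 treated samples in a table of their own (I, II and III in both). The labels do not say that replicates were separate cultures or animals, so p-values measure the spread between these samples, which may be technical. The labels give the cells as epithelial, without the mesenchyme that surrounds them in the tissue.

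Glutathione peroxidases use glutathione to reduce hydrogen peroxide and lipid peroxides, and glutamate-cysteine ligase, whose catalytic subunit is encoded by Gclc, makes the first step of glutathione synthesis. Nqo1, Gclc, Txnrd1 and Hmox1 are textbook targets of NRF2, the transcription factor encoded by Nfe2l2, which KEAP1 holds at a low level in unstressed cells. NADPH oxidases do the opposite work and make superoxide or hydrogen peroxide on purpose: NOX1 is an oxidase of the gut epithelium that needs the partners NOXO1, NOXA1, p22phox (Cyba) and Rac1, while DUOX2 releases hydrogen peroxide at the apical surface and leaves the endoplasmic reticulum only with its maturation factor DUOXA2.

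The values of the Bmp table were read counts divided by a size factor per sample, called normalized counts below, from 21358620 to 24784834 recovered reads per sample. Those of the Tgfb table were TPM, a relative abundance scaled by transcript length, which keeps no depth. Differences are given as log2 of the value + 1, with a standard error (SE) from limma and a Benjamini-Hochberg adjusted p over all genes tested, and "called" means an adjusted p under 0.05. The response to some ligands was broad: of 14746 tested genes, Bmp2 gave calls for 75.1%, Bmp4 for 65.1%, Bmp7 for 32.4%, Bmp5 for 26.3% and Bmp3 for 0%, and Tgfb for 56.7% of 12959. The deposited scaling left sums of 26268636 to 29004576 normalized counts in the Bmp2 samples and 25574455 to 26979289 with Bmp4, against 19250832 to 20518942 in the controls. Giving every sample the same total instead moved the median log2 difference of all genes from -0.03 to -0.49 for Bmp2 and from 0.04 to -0.35 for Bmp4. With that scaling the calls split into 3601 higher and 7820 lower genes for Bmp2 (5420 and 5657 as deposited) and into 3080 and 6896 for Bmp4 (4964 and 4633), and into 2575 and 2731 for Bmp7 (2833 and 1940). Stem and proliferating cell markers fell in 8 of 8 genes with Bmp2, Bmp4 and Tgfb, and in 1 of 8 with Bmp5 and 3 of 8 with Bmp7. Their summed level was 125458 to 152845 normalized counts in the controls, 50359 to 105234 with Bmp5, 43263 to 54069 with Bmp7, 10843 to 15845 with Bmp4 and 2713 to 4563 with Bmp2. Absorptive enterocyte markers rose in 7 of 8 genes with Bmp4, with a summed level of 365910 to 445940 against 52504 to 98192 in the controls, while with Bmp2 1 rose and 4 fell, 3 fell with Bmp5, 4 fell with Bmp7, and 3 rose and 5 fell with Tgfb. Of 10 secretory cell markers 3 rose and 5 fell with Bmp2, 3 and 1 with Bmp4, 1 and 1 with Bmp5, 2 and 1 with Bmp7 and 2 and 6 with Tgfb, and their sum was 61797 to 81167 normalized counts in the controls and 31670 to 70539 with Bmp2. Of all genes, 36.8% were higher and 38.4% lower with Bmp2, and 33.7% and 31.4% with Bmp4. The shares were 16.5% and 9.87% with Bmp5, 19.2% and 13.2% with Bmp7, and 27.4% and 29.3% with Tgfb. The secretory counts with Bmp2, Bmp5 and Bmp7 were near these shares, and so was the count of stem and proliferating cell markers that fell with Bmp5. Markers of mesenchymal, endothelial and immune cells summed to 617 to 815 normalized counts in the controls, 903 to 1085 with Bmp2 and 941 to 1056 with Bmp4, with Dcn and Lum not listed. The sums over all genes were also larger in these 2 treated groups, as given above. Only 2 of these markers were tested, 1 higher and 1 lower with Bmp2 (median -0.33), and 1 higher and 0 lower with Bmp4 (median 0.01).

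The stretch just before Duoxa2, on the side of Duox2, is shown because these neighbouring genes point away from each other and their RNAs rose together in the data below. That before Nqo1 is shown because Nqo1 moved in opposite directions with Bmp2 and Bmp4. Both come from RefSeq promoter windows (250 bases before the gene's start; GRCm38.p6, while the deposited tables name GRCm39), trimmed to bases outside the GENCODE exons of these genes, and 8 of the 10 genes had a window there. Capitals mark TATAAA, the TATA box, a motif searched on both strands after the sequences had been read.
Duoxa2, chr2:122298741-122298899, plus strand: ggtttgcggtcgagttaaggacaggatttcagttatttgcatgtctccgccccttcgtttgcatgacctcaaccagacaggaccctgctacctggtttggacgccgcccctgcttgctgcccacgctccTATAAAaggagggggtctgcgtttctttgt
Nqo1, chr8:107403207-107403455, minus strand: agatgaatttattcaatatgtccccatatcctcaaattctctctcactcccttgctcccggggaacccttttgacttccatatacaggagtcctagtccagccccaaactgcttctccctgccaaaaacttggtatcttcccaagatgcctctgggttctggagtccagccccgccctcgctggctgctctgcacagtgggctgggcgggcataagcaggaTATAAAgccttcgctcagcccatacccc
TATAAA begins 30 bases before the start of Duoxa2 and 29 before that of Nqo1, in the direction of the gene, and 12.4% of all 32851 windows hold it. The core of the antioxidant response element bound by NRF2, TGACNNNGC on either strand, is in 10.2% of all windows and among these genes only in 1 of 3 windows of Txnrd1, where it lies on the opposite strand. GGCGCC, a GC-rich motif of Smad1 and Smad5, is in 9.59% of all windows and here only in 1 of 4 windows of Gpx4. No window of these genes held more than 1 of the 3 motifs, so none overlap, and a match describes letters, not a used site.

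In untreated organoids, compared per length on the TPM scale of the Tgfb controls, Gpx2 was the most abundant of the 10 RNAs at 862 TPM ± 85.2 (SD, n = 3). Gpx1 followed at 297 ± 43.4, Gpx4 at 216 ± 22.4 and Txnrd1 at 128 ± 11.2, and each of these had a range clear of the next. Gclc (33.4 ± 4.21) and Nqo1 (33.3 ± 6.13) could not be ordered within their spread. Nox1 (5.85 ± 2.38) overlapped Duox2 (4.98 ± 1.11), and Hmox1 (3.02 ± 0.641) overlapped Duoxa2 (2.06 ± 0.576). The defence enzymes other than Hmox1 were thus measured at higher levels than the oxidase genes in resting cultures.

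Nox1, the catalytic subunit of the gut superoxide-producing oxidase, fell to nearly nothing with Bmp2 and with Bmp4 but not with the other ligands. Its controls held 340, 290, 1130 and 624 normalized counts (replicates II, III, IV and VI). With Bmp2 it was at 2.27, 2.56, 7.06 and 26.6, from 2 to 21 reads, and with Bmp4 at 7.11, 3.42 and 15.6 (II, III and VI), from 3 to 13 reads. Every Bmp2 and Bmp4 sample was therefore below the lowest control by more than 10 times. The log2 difference was -6.17 (SE 0.61, adjusted p = 3.1e-08) for Bmp2 and -5.94 (SE 0.66, adjusted p = 3.0e-07) for Bmp4, the largest changes among the 10 genes in these comparisons. Bmp2 and Bmp4 differed from each other by -0.24 (SE 0.66, adjusted p = 0.77), and their ranges overlapped.

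With Bmp5, Nox1 was at 1030, 633 and 821 normalized counts (II, III and VI), and with Bmp7 at 1060, 878 and 997. These ranges overlapped that of the controls, and the log2 differences of 0.66 (SE 0.66) and 0.92 (SE 0.66) were not called (adjusted p = 0.50 and 0.30). Nox1 varied by replicate number, and each treated sample was above the control of the same number, by 1.32 to 3.03 times for Bmp5 and 1.60 to 3.12 times for Bmp7. With the replicate number as a block the Bmp7 difference was 1.20 (SE 0.46, adjusted p = 0.046), while 15 of 16 alternatives left it uncalled. The Bmp5 difference with the block was 0.93 (SE 0.46, adjusted p = 0.13) and was not called. The log2 difference from Bmp7 was -6.86 (SE 0.71, adjusted p = 1.7e-07) for Bmp4 and -7.10 (SE 0.66, adjusted p = 4.2e-08) for Bmp2. Stem and proliferating cell markers were lowest in the same groups, with the sums given above; their part in the fall of Nox1 was not tested, and in whole organoids fewer cells of a type and less RNA per cell cannot be told apart.

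Among the partners of NOX1, the activator Noxa1 fell with Bmp2, Bmp4, Bmp5 and Bmp7, and the organizer Noxo1 fell with Bmp4. Noxa1 was at 470 to 645 normalized counts in the controls, 57.9 to 91.8 with Bmp2 and 28.5 to 35.6 with Bmp4, with log2 differences of -2.86 (SE 0.15, adjusted p = 7.5e-12) and -4.09 (SE 0.17, adjusted p = 2.2e-12). It was also lower with Bmp7 (-1.05, SE 0.17, adjusted p = 8.7e-05) and with Bmp5 (-0.49, SE 0.17, adjusted p = 0.035), where Nox1 was not lower. The Bmp5 call was lost without control replicate III (adjusted p = 0.055), IV (0.10) or VI (0.074), without Bmp5 replicate III (0.23) or with no filter (0.061). Noxo1 fell with Bmp4 (-0.62, SE 0.16, adjusted p = 0.0028) and was not called with Bmp2 (-0.28, SE 0.15, adjusted p = 0.11).

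Cyba, which encodes the p22phox subunit that stabilises several NOX enzymes, went in opposite directions with Bmp2 and Bmp4. It was at 485 to 575 normalized counts in the controls, 973 to 1380 with Bmp2 (log2 difference 1.11, SE 0.12, adjusted p = 9.3e-08) and 274 to 351 with Bmp4 (-0.77, SE 0.13, adjusted p = 3.8e-05), and none of these ranges overlapped. Bmp5 (1.00, SE 0.13, adjusted p = 1.6e-05) and Bmp7 (0.75, SE 0.13, adjusted p = 2.1e-04) also raised it. Rac1, a small GTPase with many roles beside NOX1 activation, rose with Bmp2 (1.16, SE 0.11) and Bmp4 (0.69, SE 0.12), adjusted p = 1.1e-08 and 4.0e-05, and the latter call was lost with quantile normalization (adjusted p = 0.48). Rac1 was also called higher with Bmp7, at 8360 to 10100 normalized counts against 6420 to 7830 in the controls. That call was lost without control replicate IV (adjusted p = 0.071) or Bmp7 replicates II (0.086) or VI (0.10). With Bmp5 Rac1 was at 7800 to 8960, which overlapped the controls. With Tgfb it was at 388 to 497 TPM, against 284 to 325 in its controls. Duox1, Duoxa1, Nox4, Cybb, Ncf1 and Ncf4 were below the filter of a mean of 10 normalized counts, although Duox1 stood at 23.8 to 33.2 in the Bmp2 samples against 0 to 4.44 in the controls, untested.

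**Figure D1:**
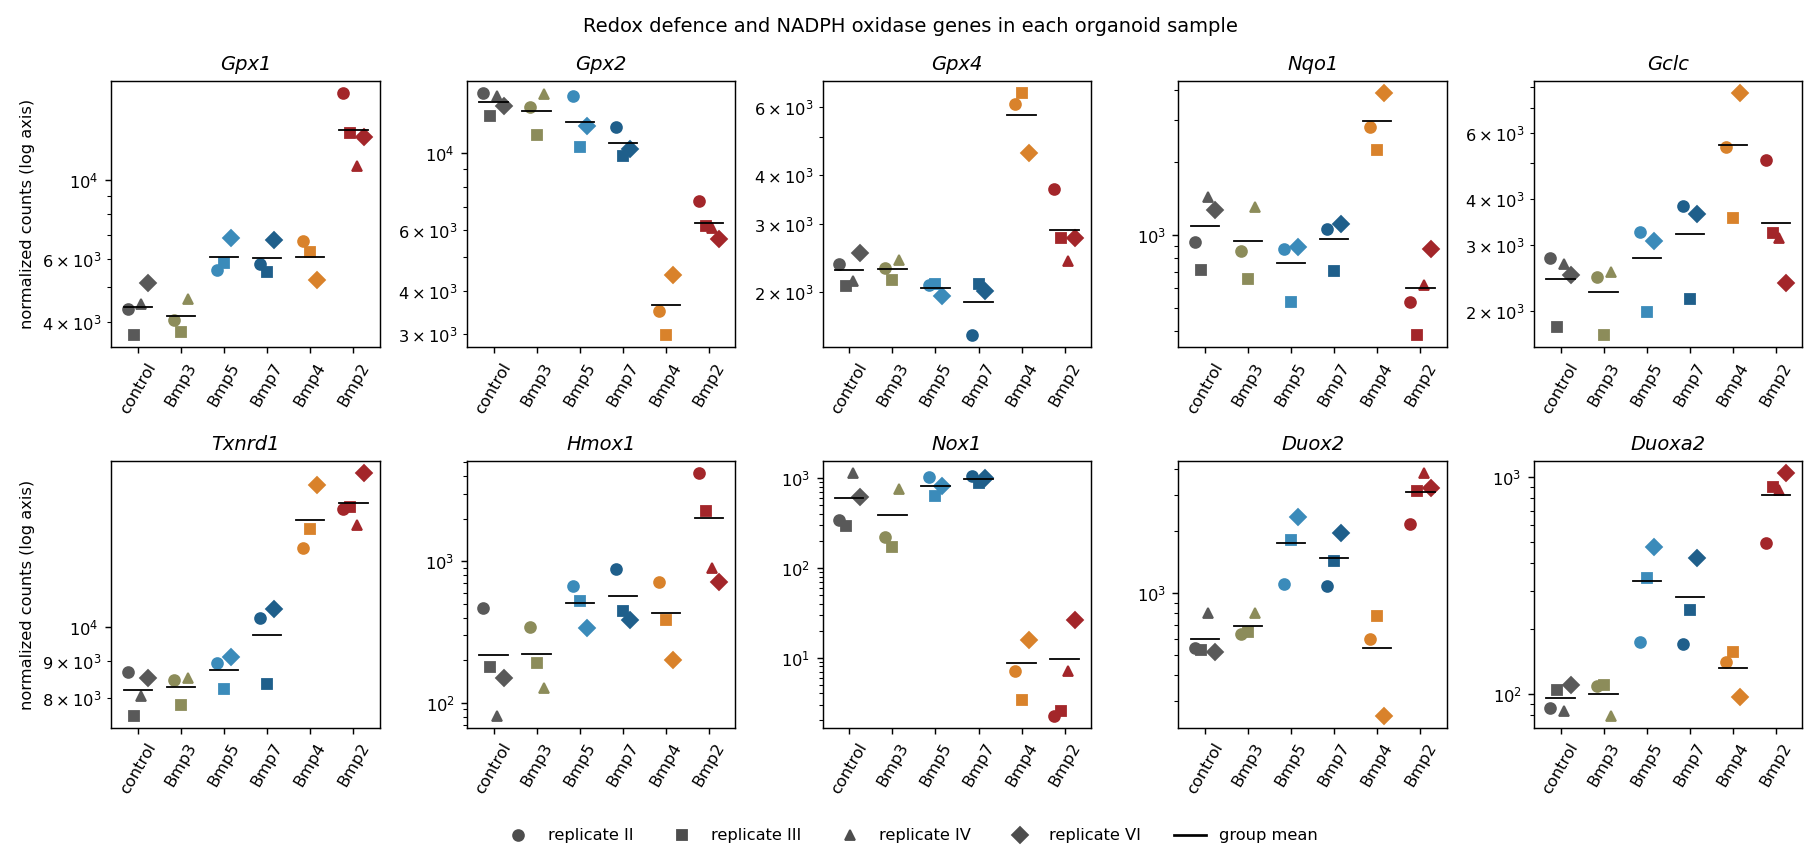
Normalized counts of each of the 10 genes (log axes, not starting at 0) in every sample of the 6 groups of the Bmp table; marker shapes give the replicate number and bars the group mean. Nox1 is between 2.27 and 26.6 in the Bmp2 and Bmp4 samples and at 171 or more in all others, and Nqo1 is highest in the 3 Bmp4 samples.

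Duox2 and its maturation factor Duoxa2 rose with Bmp2, Bmp5 and Bmp7, and were not called with Bmp4. Duox2, the apical hydrogen peroxide producer, was at 542, 528, 800 and 521 normalized counts in the controls (II, III, IV and VI). It reached 2170, 3120, 3810 and 3250 with Bmp2, and 1110, 1810 and 2330 with Bmp5 and 1080, 1430 and 1950 with Bmp7 (II, III and VI). All 10 of these samples were above the highest control, and replicate II was the lowest of each treated group. The log2 difference was 2.36 (SE 0.29, adjusted p = 6.9e-07) for Bmp2, 1.51 (SE 0.32, adjusted p = 0.0017) for Bmp5 and 1.30 (SE 0.32, adjusted p = 0.0043) for Bmp7. With Bmp4, Duox2 held 601, 777 and 255 normalized counts, across the control range, a difference of -0.26 (SE 0.32, adjusted p = 0.50).

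Duoxa2 started lower, at 86.1, 104, 83.4 and 110 normalized counts in the controls. It rose to 497, 902, 868 and 1040 with Bmp2, to 174, 342 and 475 with Bmp5 and to 170, 243 and 424 with Bmp7, and again no treated sample of these groups was within the control range. The log2 differences were 3.05 (SE 0.30, adjusted p = 3.2e-08), 1.67 (SE 0.33, adjusted p = 8.95e-04) and 1.44 (SE 0.33, adjusted p = 0.0024). With Bmp4 it held 141, 157 and 96.9, a difference of 0.43 (SE 0.33, adjusted p = 0.26) with overlapping ranges. Directly compared, Bmp2 exceeded Bmp4 by 2.62 (SE 0.32, adjusted p = 7.5e-07) for Duox2 and by 2.62 (SE 0.33, adjusted p = 1.1e-06) for Duoxa2. Bmp2 also exceeded Bmp7, by 1.07 (SE 0.32, adjusted p = 0.0071) for Duox2, lost with the same total per sample (adjusted p = 0.080), and by 1.61 (SE 0.33, adjusted p = 3.1e-04) for Duoxa2. Duoxa2 lies beside Duoxa1 on the other strand and overlaps it, and the strand setting of the counting is not given in the sources used here. Duoxa1 was at 3.21% of the Duoxa2 level with Bmp2 and at 0.695% in the controls, and in the TPM table at 7.28% with Tgfb and 0.711% in its controls.

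The 3 glutathione peroxidases each followed a different pattern. Gpx1, the ubiquitous cytosolic enzyme, was at 4350, 3660, 4490 and 5130 normalized counts in the controls and at 17500, 13500, 10900 and 13200 with Bmp2. The lowest Bmp2 sample was above every sample of every other group, and the log2 difference was 1.63 (SE 0.14, adjusted p = 2.6e-09). With Bmp4 (6730, 6260 and 5240), Bmp5 (5570, 5840 and 6850) and Bmp7 (5810, 5520 and 6780) Gpx1 was also above all controls, by a smaller step of 0.47 (SE 0.15, adjusted p = 0.0093), 0.47 (SE 0.15, adjusted p = 0.023) and 0.46 (SE 0.15, adjusted p = 0.022). Those 3 small rises were fragile in fits that did not use the replicate number. The one with Bmp4 was 0.07 with the same total per sample (adjusted p = 0.70) and -0.01 with quantile normalization (adjusted p = 0.97), and was lost without Bmp4 replicate II (adjusted p = 0.052). Relative to the median of all genes with the same total per sample, the Bmp4 difference was 0.42. Taking off that median undoes the rescaling, so this value is no separate check. That with Bmp5 was lost without control replicate III (0.079), Bmp5 replicate III (0.055) or Bmp5 replicate VI (0.13), and that with Bmp7 without control replicate III (0.076), without Bmp7 replicate VI (0.11) or with quantile normalization (0.10), all adjusted p. With the replicate number as a block, Bmp4, Bmp5 and Bmp7 were all called (adjusted p = 0.011, 0.021 and 0.021). Ratios to same-numbered controls were 1.02 to 1.71 for Bmp4, 1.28 to 1.60 for Bmp5 and 1.32 to 1.51 for Bmp7.

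Gpx2, the glutathione peroxidase of the gut epithelium, fell with Bmp2 and more with Bmp4. The controls held 14900, 12800, 14600 and 13700 normalized counts, the Bmp2 samples 7280, 6140, 6070 and 5650, and the Bmp4 samples 3500, 2970 and 4440. The 3 groups did not overlap, with log2 differences from the controls of -1.16 (SE 0.13, adjusted p = 1.7e-07) and -1.96 (SE 0.14, adjusted p = 1.5e-09) and of 0.80 (SE 0.14, adjusted p = 5.8e-05) between Bmp2 and Bmp4. With Bmp7 (11900, 9810 and 10300) it was -0.39 (SE 0.14, adjusted p = 0.039), below every control. That call was lost with no filter (adjusted p = 0.069), without control replicates II (0.084), IV (0.078) or VI (0.062), and without Bmp7 replicates III (0.12) or VI (0.11). With the replicate number as a block the Bmp7 difference was -0.37 (SE 0.11, adjusted p = 0.011). Each Bmp7 sample was at 0.752 to 0.799 of its same-numbered control. With Bmp5 (14600, 10400 and 12000) the difference was -0.19 (SE 0.14, adjusted p = 0.34). The fall of Gpx2 stood beside the lower sums of stem and proliferating cell markers given above, whose part was not tested.

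Gpx4, which reduces lipid hydroperoxides in membranes, was high with Bmp4. It was at 2360, 2080, 2140 and 2530 normalized counts in the controls and at 6080, 6500 and 4570 with Bmp4, clear of every other sample, a log2 difference of 1.32 (SE 0.14, adjusted p = 1.9e-07). With Bmp2 (3680, 2750, 2410 and 2750) the ranges overlapped. The difference of 0.33 (SE 0.13, adjusted p = 0.027) turned to -0.13 with the same total per sample (adjusted p = 0.41) and -0.09 with quantile normalization (adjusted p = 0.55), and its call was lost without control replicates III (0.076) or IV (0.065) or Bmp2 replicate II (0.12). Relative to the median of all genes with the same total per sample, the Bmp2 difference was 0.36. Taking off that median undoes the rescaling, so this value is no separate check. Bmp2 was 0.98 below Bmp4 on the log2 scale (difference -0.98, SE 0.14, adjusted p = 5.8e-06). Bmp5 (2090, 2100 and 1950) and Bmp7 (1550, 2100 and 2020) were not called, at -0.15 (SE 0.14, adjusted p = 0.47) and -0.28 (SE 0.14, adjusted p = 0.14). Gpx4 and Gpx2 have processed pseudogenes of near-identical sequence that could share reads; the highest level of Gpx4-ps2 in any sample of the table was 35.9 and that of Gpx2-ps1 15.5 normalized counts, small beside the genes themselves.

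**Figure D2:**
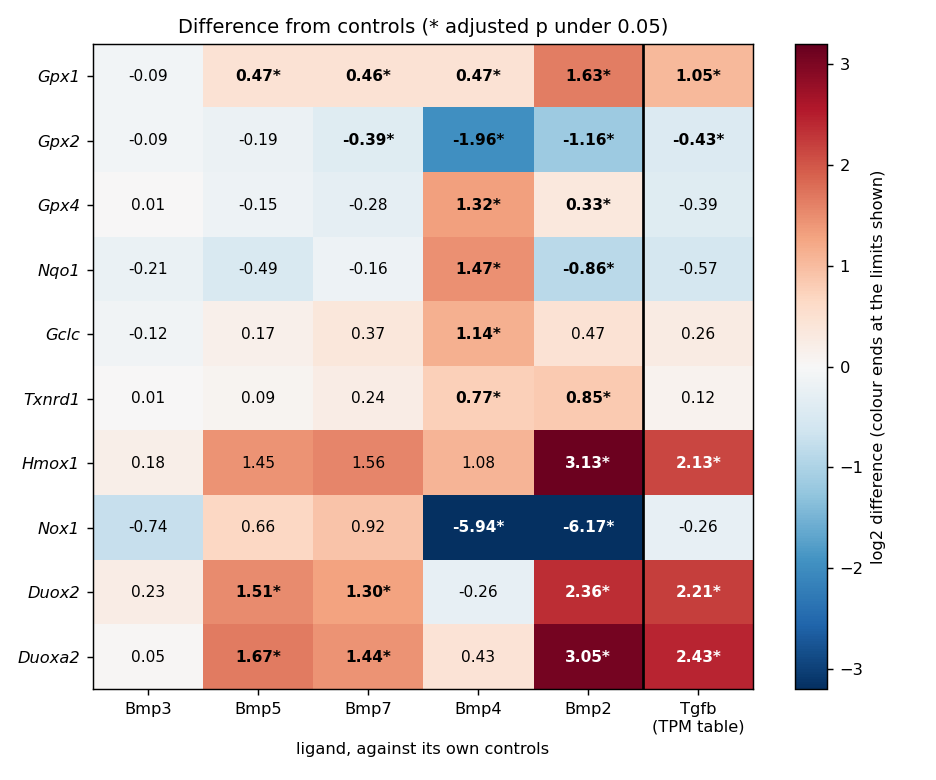
Log2 differences from the matching controls for each gene and ligand, as colour and number; an asterisk marks an adjusted p under 0.05, the colour scale ends at the limits shown, and the Tgfb column comes from the separately scaled TPM table. Nqo1 is -0.86 with Bmp2 and 1.47 with Bmp4, and no value in the Bmp3 column is called.

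Nqo1, a quinone reductase, rose with Bmp4 and fell with Bmp2. The controls were at 931, 714, 1430 and 1270 normalized counts. With Bmp4 it was at 2810, 2260 and 3870, above every other sample, a log2 difference of 1.47 (SE 0.30, adjusted p = 3.3e-04). Each Bmp4 sample was 3.02 to 3.17 times the control of its own number. With Bmp2 it was at 526, 384, 621 and 872, which overlapped the controls at the top, a difference of -0.86 (SE 0.28, adjusted p = 0.0097), and each sample was at 0.434 to 0.687 of its same-numbered control. The numbers were not taken to pair Bmp2 with the controls, since deviations from group means correlated at 0.018 for replicate III. The direct difference of Bmp2 from Bmp4 was -2.34 (SE 0.30, adjusted p = 1.8e-06), and the ranges did not overlap.

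With Bmp7 (1060, 707 and 1110) Nqo1 was -0.16 from the controls (SE 0.30, adjusted p = 0.72). With Bmp5 (875, 529 and 892) it was -0.49 (SE 0.30, adjusted p = 0.26), and -0.38 with the replicate number as a block (SE 0.12, adjusted p = 0.021), so that the call depends on the block. Bmp4 exceeded Bmp7 by 1.63 (SE 0.32, adjusted p = 2.9e-04). Beside Nqo1 with Bmp4 stood the higher enterocyte marker sums given above, and their part in the result was not tested.

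Gclc, the catalytic subunit of the enzyme that starts glutathione synthesis, was called with Bmp4 among the ligands. It held 2780, 1810, 2670 and 2500 normalized counts in the controls and 5500, 3560 and 7680 with Bmp4, all above the controls, a log2 difference of 1.14 (SE 0.28, adjusted p = 0.0016). With Bmp2 (5070, 3230, 3130 and 2380) the ranges overlapped, and 0.47 (SE 0.26) was not called (adjusted p = 0.12; 0.046 without Bmp2 replicate VI). Replicate III was the lowest of the numbered samples with Bmp4, Bmp5, Bmp7, Bmp3 and in the controls. The difference of Bmp2 from Bmp4 was -0.68 (SE 0.28, adjusted p = 0.042), a call lost without any of Bmp2 replicates III, IV and VI or Bmp4 replicates II and VI, with adjusted p from 0.073 to 0.24, and also with no filter (0.060) and with edgeR on the recovered reads (0.053). Bmp5 (3250, 1980 and 3080) and Bmp7 (3820, 2150 and 3650) differed from the controls by 0.17 and 0.37 (SE 0.28 each, adjusted p = 0.71 and 0.34).

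Txnrd1, the cytosolic thioredoxin reductase, rose with both Bmp2 and Bmp4. The controls were at 8700, 7580, 8060 and 8540 normalized counts, the Bmp2 samples at 14500, 14600, 13800 and 16200 and the Bmp4 samples at 12800, 13600 and 15600. No treated sample overlapped the controls, with log2 differences of 0.85 (SE 0.09, adjusted p = 7.8e-08) and 0.77 (SE 0.10, adjusted p = 1.5e-06). With the same total per sample they were 0.39 (adjusted p = 8.8e-05) and 0.37 (adjusted p = 4.4e-04). Relative to the median of all genes under that scaling they were 0.87 and 0.72. Taking off that median undoes the rescaling, so these 2 values are no separate check. Over all alternatives the Bmp2 difference went as low as 0.18, with adjusted p of at most 0.041. With quantile normalization the Bmp4 difference was 0.13 (adjusted p = 0.19). Bmp2 and Bmp4 differed by 0.08 (SE 0.10, adjusted p = 0.48), and their ranges overlapped. With Bmp7 (10300, 8370 and 10600) the difference was 0.24 (SE 0.10, adjusted p = 0.064), and with the replicate number as a block 0.23 (SE 0.07, adjusted p = 0.016), while Bmp5 (8940, 8230 and 9100) was at 0.09 (SE 0.10, adjusted p = 0.53).

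Hmox1, which degrades haem and is induced by oxidative and haem stress, rose most with Bmp2. The Bmp2 samples were at 4180, 2280, 905 and 716 normalized counts (II, III, IV and VI) and the controls at 466, 181, 81.6 and 151, without overlap. The log2 difference was 3.13 (SE 0.56, adjusted p = 6.0e-05), and each Bmp2 sample was 4.74 to 12.6 times its same-numbered control. As given for Nqo1, the numbers were not taken to pair Bmp2 with the controls. Replicate II was the highest sample of every group, so that differences between replicates of a group were large beside those between groups.

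For Hmox1 the Bmp4 samples held 715, 383 and 202, the Bmp5 samples 665, 527 and 338 and the Bmp7 samples 880, 444 and 383 normalized counts (II, III and VI), all overlapping the controls. Without regard to number the log2 differences were 1.08, 1.45 and 1.56 (SE 0.61 each) and were not called (adjusted p = 0.13, 0.090 and 0.058). Each treated sample was nevertheless above the control of its number, by 1.34 to 2.12 times for Bmp4, 1.43 to 2.91 for Bmp5 and 1.89 to 2.54 for Bmp7. With the replicate number as a block the differences were called, at 0.81 (SE 0.25, adjusted p = 0.0077), 1.17 (SE 0.25, adjusted p = 0.0014) and 1.29 (SE 0.25, adjusted p = 5.6e-04). Without control replicate II they were called too, at adjusted p = 0.032, 0.027 and 0.016. Bmp2 exceeded Bmp4 by 2.05 (SE 0.61, adjusted p = 0.0064) and Bmp7 by 1.57 (SE 0.61, adjusted p = 0.032), the latter lost without Bmp2 replicate II (0.12) or III (0.079), without Bmp7 replicate III (0.093) or VI (0.11) and with the same total per sample (0.10).

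**Figure D3:**
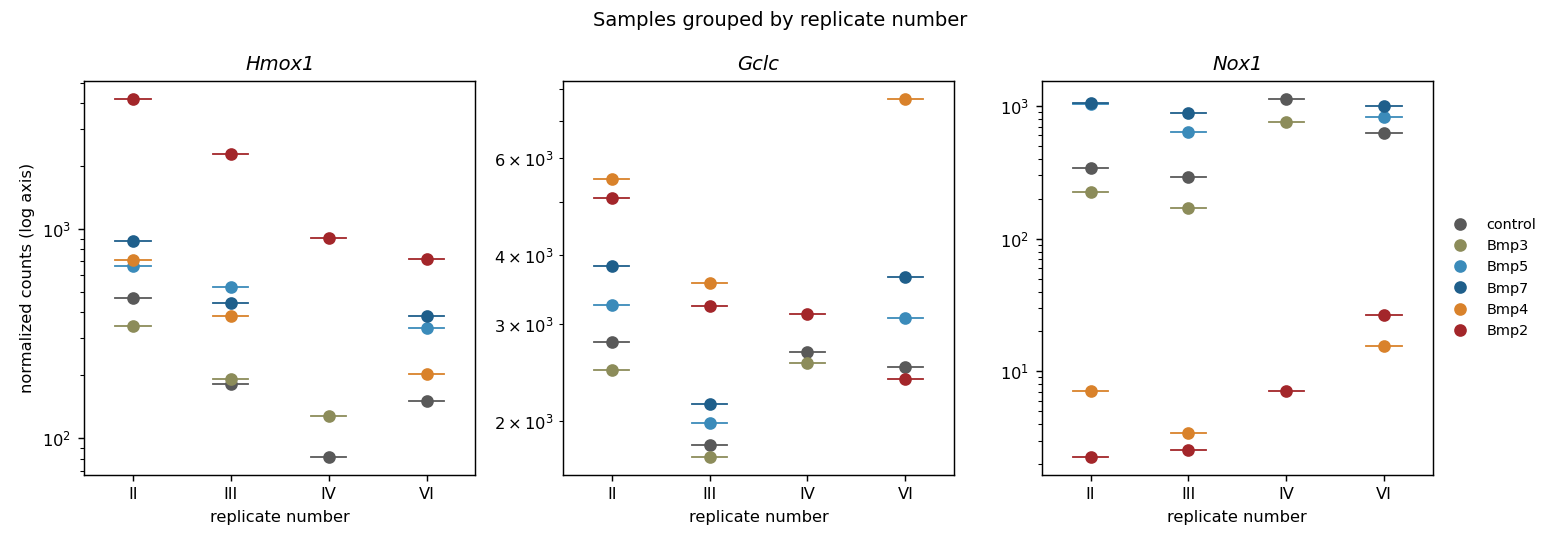
Normalized counts (log axes, not starting at 0) of Hmox1, Gclc and Nox1 in the Bmp table with samples arranged by replicate number; each point is 1 sample and colours give the ligand. Within each number Hmox1 is above the control with Bmp2, Bmp4, Bmp5 and Bmp7, and replicate II is the highest of each group.

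No change of the 10 genes was called with Bmp3. Its samples lay within or across the control range for each gene, for example 223, 171 and 762 normalized counts for Nox1 and 856, 657 and 1310 for Nqo1 (II, III and IV). Against the control of the same number Nox1 was at 0.590 to 0.674, Nqo1 at 0.916 to 0.920 and Gclc at 0.888 to 0.955, all 3 samples lower for each gene, and the other 7 genes had samples on both sides. With the replicate number as a block Nox1 differed by -0.57 (SE 0.46), with an adjusted p of 1.00 for each of the 10 genes. No member and no other gene was called with limma (adjusted p = 1 for each of the 10), with 110 genes at an unadjusted p under 0.05. edgeR on the recovered reads called 0 genes (108 under 0.05 unadjusted) and DESeq2 1 (103). The largest log2 difference among the 10 was -0.74 (SE 0.66) for Nox1.

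Across the ligands, 9 of the 10 genes were called with Bmp2 (6 higher, 3 lower), beside 75.1% of all genes (36.8% higher, 38.4% lower). With Bmp4 7 were called (5 higher, 2 lower), beside 65.1% (33.7% higher, 31.4% lower). For Bmp7 the count was 4 (3 higher, 1 lower) beside 32.4% (19.2% higher, 13.2% lower), and for Bmp5 it was 3, all higher, beside 26.3% (16.5% higher, 9.87% lower). With the replicate number as a block the counts were 7 for Bmp7 and 5 for Bmp5, beside 45.4% and 38.9% of all genes in that fit. For Bmp4 the count with the block was 8, beside 71.8% of all genes. Without the block the shares of these genes called with Bmp4, Bmp5 and Bmp7 were close to those of all genes. With the block the shares for Bmp5 and Bmp7 were above those of all genes, more so for Bmp7. Whether the counts of these 10 genes differ from those of other genes was not tested. Bmp2 and Bmp4 differed from each other for 8 of 10 (5 higher and 3 lower with Bmp2), beside 66.8% of all genes (33.4% each way). Bmp2 differed from Bmp7 for 8 (6 higher, 2 lower), beside 62.8% (31.4% each way). With the same total per sample the calls over all genes in that comparison split into 2514 higher and 6971 lower (4637 and 4625 as deposited). Bmp4 differed from Bmp7 for 8 (4 higher, 4 lower), beside 59.8% (28.4% higher, 31.4% lower), and the same total gave 2659 higher and 6652 lower genes (4190 and 4628 as deposited). Bmp5 and Bmp7 differed for 0 of 10, beside 0.0136% of all genes (0.00678% each way), with 347 genes at an unadjusted p under 0.05, and edgeR called 4 genes and DESeq2 24. For this pair the members' log2 differences ran from -0.34 (SE 0.32) for Nqo1 to 0.23 (SE 0.35) for Duoxa2, which leaves room for differences of that size. A test of equal levels among the 5 ligands was called for 10 of 10 genes (84.1% of all), with the highest adjusted p at 0.010 for Gclc. That call for Gclc was lost without Bmp4 replicate VI (adjusted p = 0.068), with the same total per sample (0.090) and with quantile normalization (0.080), and the call for Txnrd1 with quantile normalization (0.19). The test among the 5 ligands included Bmp3, which gave no calls against the controls. A call in that test does not show that the other ligands differed from each other. The comparisons with controls share the same 4 control samples.

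With Tgfb, 5 of the 10 genes were called (4 higher, 1 lower), beside 56.7% of all genes (27.4% higher, 29.3% lower). Duoxa2 rose from 1.40, 2.29 and 2.49 TPM in the controls (I, II and III) to 12.6, 13.9 and 20.1, a log2 difference of 2.43 (SE 0.22, adjusted p = 1.8e-04). Duox2 rose from 3.91, 4.90 and 6.12 to 23.9, 23.0 and 33.4, by 2.21 (SE 0.19, adjusted p = 1.6e-04). The ranges of both genes were far apart between treated and control samples. Hmox1 rose from 2.28, 3.36 and 3.41 to 14.9, 18.6 and 16.1 TPM (2.13, SE 0.15, adjusted p = 6.6e-05). Gpx1 rose from 315, 247 and 328 to 565, 582 and 691 (1.05, SE 0.14, adjusted p = 9.4e-04). All these groups were clear of each other, with every treated sample above every control.

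Gpx2 fell with Tgfb from 769, 881 and 936 to 537, 649 and 737 TPM, without overlap (-0.43, SE 0.14, adjusted p = 0.036). That call was lost with no filter (adjusted p = 0.081), without control replicates II (0.10) or III (0.11) and without Tgfb replicates I (0.075) or II (0.079). The others overlapped their controls. Nqo1 went from 27.8, 32.1 and 39.9 to 16.4, 21.0 and 30.0 (-0.57, SE 0.23, adjusted p = 0.079) and Gpx4 from 214, 196 and 240 to 132, 172 and 198 (-0.39, SE 0.16, adjusted p = 0.087). Each treated sample of both genes was below the control of its number, for Nqo1 at 0.591 to 0.753 of it. The numbers were not taken to pair the Tgfb samples with their controls. Deviations of same-numbered samples from their group means correlated at only 0.004 to 0.070. Gclc was at 30.0, 32.2 and 38.1 in the controls and 36.0, 40.1 and 44.6 with Tgfb (0.26, SE 0.12, adjusted p = 0.10), Txnrd1 at 118, 124 and 140 and 126, 132 and 158 (0.12, SE 0.11, adjusted p = 0.40). Nox1, at 5.50, 3.66 and 8.38 TPM in the controls and 3.98, 3.72 and 6.09 with Tgfb, was not called (-0.26, SE 0.29, adjusted p = 0.48). Noxa1 fell with Tgfb (-0.75, SE 0.12, adjusted p = 0.0025) and Cyba rose (1.65, SE 0.15, adjusted p = 2.1e-04). The stem and proliferating cell markers summed to 3077 to 3538 TPM in these controls and 446 to 461 with Tgfb, beside a Nox1 whose ranges overlapped. Among the mesenchymal, endothelial and immune markers Adgre1, Dcn, Col3a1, Col1a2 and Lum were listed at 0 in all 6 samples, and the sum of the list was at most 2.53 TPM.

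**Figure D4:**
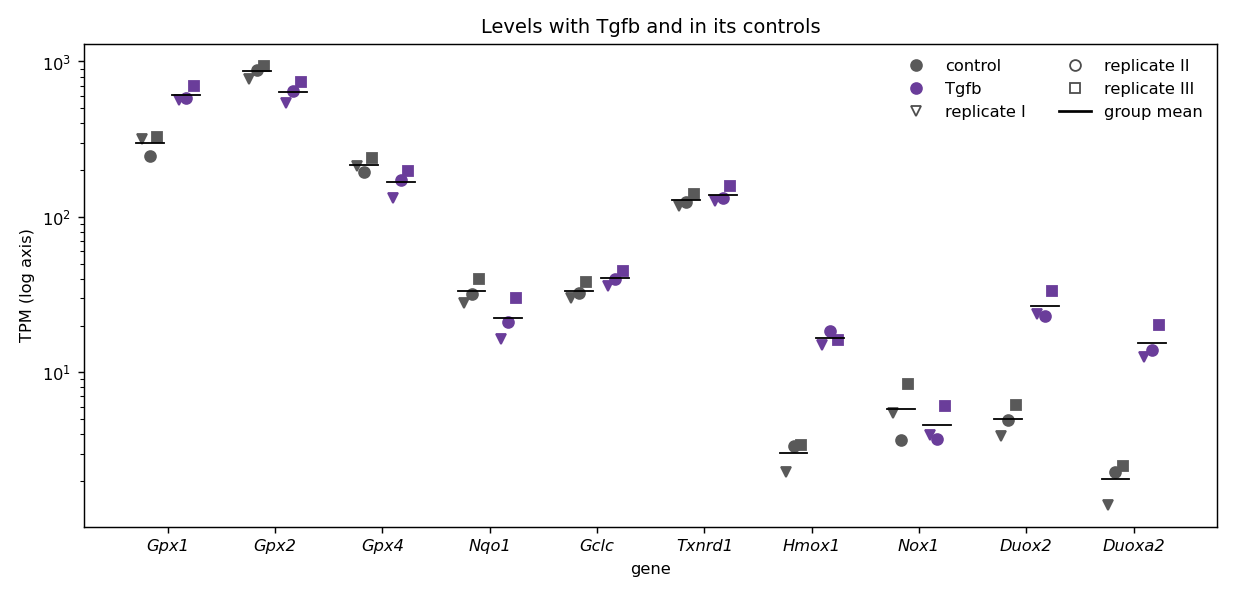
TPM (log axis) of the 10 genes in the 3 control and 3 Tgfb-treated samples; marker shapes give the replicate number and bars the group mean. Gpx1, Hmox1, Duox2 and Duoxa2 are higher in all 3 treated samples than in any control, and Nox1 overlaps.

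Of 11 regulators of the NRF2 system 9 rose and 1 fell with Bmp2, beside 36.8% higher and 38.4% lower of all genes, and 9 and 1 with Bmp4, beside 33.7% and 31.4%. With Bmp7 9 rose and 0 fell (19.2% and 13.2% of all genes), with Bmp5 6 and 0 (16.5% and 9.87%), and with Tgfb 7 and 0 of 10 tested (27.4% and 29.3%). The list medians were 1.37, 0.73, 0.53, 0.43 and 0.65 in that order, beside -0.03, 0.04, -0.05, -0.03 and -0.04 over all genes. Keap1 was the gene that fell with Bmp2 and Nfe2l3 the one that fell with Bmp4. Nfe2l2 itself was at 4610 to 6560 normalized counts in the controls and 17500 to 20100 with Bmp4 (log2 difference 1.73, SE 0.16, adjusted p = 2.7e-08), and was not called with Bmp2 (0.18, SE 0.15, adjusted p = 0.27), Bmp5 (0.01), Bmp7 (0.27) or Tgfb (-0.01). Keap1, its inhibitor, rose with Bmp4 (0.49, SE 0.10, adjusted p = 3.7e-04) and fell with Bmp2 (-0.31, SE 0.10, adjusted p = 0.0073); the rise was lost with the same total per sample (adjusted p = 0.30). The related factor Nfe2l3 rose with every called ligand except Bmp4. It went from 24.0 to 29.3 in the controls to 630 to 1100 with Bmp2 (4.96, SE 0.36, adjusted p = 3.4e-10), 149 to 605 with Bmp5 (3.62, SE 0.38, adjusted p = 2.0e-06) and 291 to 587 with Bmp7 (4.04, SE 0.38, adjusted p = 4.1e-07). With Bmp4 it fell to 5.98 to 14.8 (-1.49, SE 0.38, adjusted p = 0.0023), and with Tgfb it rose by 4.29 (SE 0.12, adjusted p = 3.7e-06). Bach2, a repressor that competes at the same DNA elements, rose by 3.18 (SE 0.18) with Bmp2, and the small MAF partners Mafk and Maff by 2.28 (SE 0.12) and 3.47 (SE 0.22), with adjusted p = 1.5e-11, 7.1e-12 and 4.9e-11. Nfe2l1, a related factor, rose with Bmp2 (1.08, SE 0.08, adjusted p = 3.1e-10) and Bmp4 (0.81, SE 0.08, adjusted p = 1.1e-07), less with Bmp7 (0.34, SE 0.08, adjusted p = 0.0040), and was not called with Bmp5 (0.22) or Tgfb (0.27). Sqstm1, an autophagy receptor that binds KEAP1, rose from 2210 to 3610 normalized counts in the controls to 16200 to 30200 with Bmp2 (3.01, SE 0.22, adjusted p = 3.6e-10), and also with Tgfb (1.69, SE 0.12, adjusted p = 7.9e-05), Bmp4 (1.33, SE 0.23), Bmp7 (1.10, SE 0.23) and Bmp5 (0.99, SE 0.23). With Bmp4, Bmp5, Bmp7 and Tgfb Mafk rose by 0.63 to 1.19 and Maff by 1.15 to 1.68. Bach2 rose by 1.06 with Bmp5, 0.97 with Bmp7 and 0.64 with Bmp4, the last lost with the same total per sample (adjusted p = 0.26), and was below the filter in the Tgfb table.

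**Figure D5:**
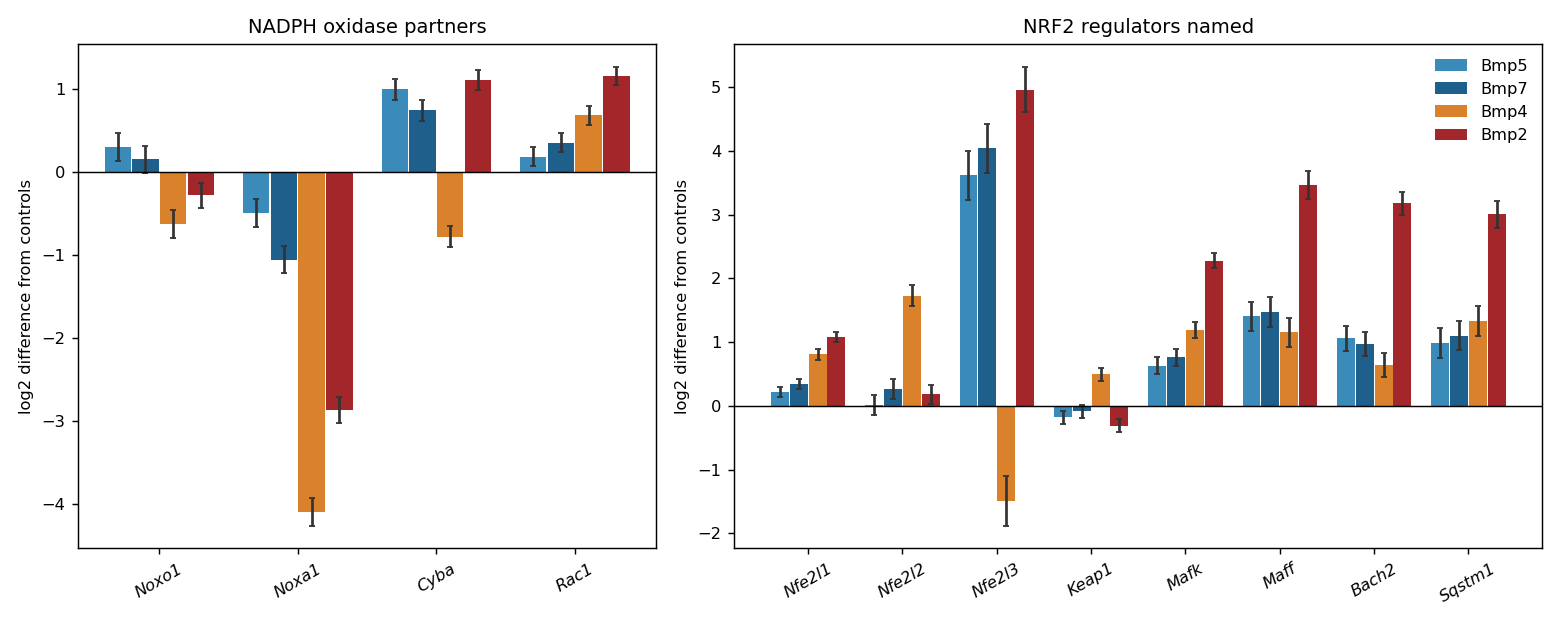
Log2 differences from the controls (bars from 0, error bars 1 SE) of 4 NADPH oxidase partners and of the named NRF2 regulators with Bmp5, Bmp7, Bmp4 and Bmp2. Nfe2l2 is 1.73 with Bmp4 and at most 0.27 with the others, and Nfe2l3 is below 0 only with Bmp4.

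Of 24 tested other glutathione, thioredoxin and peroxide enzymes 8 rose and 13 fell with Bmp2, beside 36.8% higher and 38.4% lower of all genes, with a list median of -0.42 beside -0.03. With Bmp4 17 rose and 2 fell, beside 33.7% and 31.4%, with a list median of 0.54 beside 0.04. Catalase (Cat), which breaks down hydrogen peroxide, fell with Bmp2 (-0.93, SE 0.14, adjusted p = 7.5e-06) and Tgfb (-0.94, SE 0.06, adjusted p = 4.7e-05) and rose with Bmp4 (1.48, SE 0.15, adjusted p = 1.1e-07). The mitochondrial superoxide dismutase Sod2 fell with Bmp2 (-1.41, SE 0.08, adjusted p = 8.1e-12) and rose with Bmp4 (0.54, SE 0.08, adjusted p = 1.2e-05), the latter lost with the same total per sample (adjusted p = 0.11). Sod2 also fell with Bmp5 (-0.49), Bmp7 (-0.37) and Tgfb (-0.76), and Cat with Bmp5 (-0.67) and Bmp7 (-0.57), all called. Blvrb, which reduces biliverdin, rose with Bmp2 by 3.30 (SE 0.14, adjusted p = 4.5e-13), with Bmp7 by 2.53 (SE 0.15, adjusted p = 3.0e-09) and with Tgfb by 3.10 (SE 0.12, adjusted p = 9.9e-06), and likewise with Bmp5 (2.53, SE 0.15) and Bmp4 (1.19, SE 0.15). Gpx3, the secreted glutathione peroxidase, rose from 32.2 to 55.9 normalized counts in the controls to 581 to 650 with Bmp2 (3.90, SE 0.23, adjusted p = 2.4e-11). It was at 154 to 175 with Bmp7, 97.8 to 161 with Bmp5 and 86.2 to 216 with Bmp4 (adjusted p = 7.1e-06, 6.3e-05 and 3.0e-06), and rose with Tgfb by 1.87 (SE 0.20, adjusted p = 4.0e-04). The peroxiredoxin Prdx5 rose with Bmp4 by 1.51 (SE 0.11, adjusted p = 2.6e-09), with Bmp2 by 1.42 (SE 0.11, adjusted p = 5.5e-10), with Tgfb by 1.16 (SE 0.14, adjusted p = 5.9e-04), and with Bmp5 and Bmp7 by 0.50 and 0.51 (SE 0.11 each). The glutaredoxin Glrx rose with Bmp4 by 1.64 (SE 0.17, adjusted p = 9.1e-08) and fell with Bmp2 (-0.93, SE 0.15, adjusted p = 2.2e-05). It was not called with Bmp5 (0.35) or Bmp7 (0.42), and its call with Tgfb (0.25, SE 0.08, adjusted p = 0.036) was lost without any 1 of the 6 samples (0.052 to 0.11). The list counts were 3 higher and 8 lower with Bmp5, 4 and 9 with Bmp7, and 7 and 11 with Tgfb, of 24 tested each, beside all-gene shares of 16.5% and 9.87%, 19.2% and 13.2%, and 27.4% and 29.3%.

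Of the 8 tested enzymes that supply NADPH, 3 rose and 3 fell with Bmp2, close to the all-gene shares of 36.8% higher and 38.4% lower, and 4 rose and 1 fell with Bmp4, beside 33.7% and 31.4%. With Bmp5 1 rose and 1 fell (16.5% and 9.87% of all genes). With Bmp7 the counts were 1 and 2 (19.2% and 13.2%), and with Tgfb 3 and 2 (27.4% and 29.3%). Me1, the cytosolic malic enzyme, rose with Bmp2 (2.82, SE 0.22, adjusted p = 1.1e-09), Bmp4 (1.94, SE 0.24, adjusted p = 1.0e-06), Bmp7 (1.34, SE 0.24, adjusted p = 2.9e-04), Bmp5 (1.04, SE 0.24, adjusted p = 0.0031) and Tgfb (2.61, SE 0.18, adjusted p = 5.9e-05). The mitochondrial isocitrate dehydrogenase Idh2 fell with Bmp2 (-2.12, SE 0.12, adjusted p = 1.1e-11), Bmp4 (-1.09, SE 0.13, adjusted p = 5.3e-07) and Tgfb (-1.07, SE 0.06, adjusted p = 3.8e-05), and the cytosolic Idh1 rose with Bmp4 (1.46, SE 0.14, adjusted p = 3.6e-08) and was not called with the others. Idh2 was also lower with Bmp7 (-0.43, adjusted p = 0.015), a call lost without Bmp7 replicate VI (0.066), and was not called with Bmp5 (-0.28). Mthfd2, a mitochondrial folate enzyme, fell with Tgfb (-1.69, SE 0.08, adjusted p = 2.0e-05) and Bmp7 (-0.69, SE 0.20, adjusted p = 0.014), the latter lost without Bmp7 replicate II (0.052) or VI (0.087), and with Bmp5 (-0.85, SE 0.20, adjusted p = 0.0043).

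Glutathione peroxidases 1, 2 and 4 and thioredoxin reductase 1 carry selenocysteine, and the genes of selenoprotein synthesis and the other selenoproteins were counted for that reason. With Bmp4 14 of 19 rose and 5 fell, beside 33.7% and 31.4% of all genes (list median 0.63 beside 0.04 over all genes). With Bmp2 7 rose and 8 fell, close to the all-gene shares of 36.8% and 38.4% (list median -0.05 beside -0.03). Selenop, which encodes the secreted selenium carrier, was at 2360 to 3070 normalized counts in the controls and 19700 to 24700 with Bmp4 (3.01, SE 0.21, adjusted p = 9.4e-10), and was not called with the others. Secisbp2l, a relative of the protein that binds the selenocysteine insertion element, rose with Bmp4 by 1.55 (SE 0.12, adjusted p = 2.3e-09), and with Bmp2 by 1.32, Tgfb by 0.96, Bmp7 by 0.58 and Bmp5 by 0.46, the last lost without Bmp5 replicate VI (adjusted p = 0.061). Pstk and Sepsecs, enzymes that build selenocysteine on its tRNA, fell with Bmp2, at -2.75 (SE 0.15, adjusted p = 1.35e-11) and -1.53 (SE 0.10, adjusted p = 8.9e-11). Pstk also fell with Bmp7 (-1.14, SE 0.17, adjusted p = 4.1e-05), Bmp5 (-0.82) and Tgfb (-1.48), and with Bmp4 (-0.45, adjusted p = 0.023), lost without control replicates II (0.057) or III (0.053), without Bmp4 replicate VI (0.077) and with quantile normalization (0.13). Sepsecs fell with Bmp5 (-0.58), Bmp7 (-0.47) and Tgfb (-0.73) and rose with Bmp4 (0.67). Selenoi rose with Bmp7 (0.44, SE 0.08, adjusted p = 2.4e-04), Bmp2 (0.96), Bmp4 (1.04), Bmp5 (0.34) and Tgfb (0.84). Selenom fell with Tgfb (-1.43, SE 0.12, adjusted p = 1.3e-04) and Bmp2 (-1.94, SE 0.22, adjusted p = 1.7e-07). Its calls with Bmp4 (-0.59), Bmp5 (-0.79) and Bmp7 (-0.72) were each lost without control replicate II (adjusted p = 0.10, 0.057 and 0.075) and without other single samples. Selenon rose with Tgfb (1.39, SE 0.13, adjusted p = 1.95e-04), Bmp2 (1.48, SE 0.19), Bmp5 (0.92, SE 0.21) and Bmp7 (0.90, SE 0.21) and fell with Bmp4 (-2.16, SE 0.21, adjusted p = 4.9e-08). The lists gave 3 higher and 4 lower with Bmp5, 4 and 5 with Bmp7 and 5 and 8 with Tgfb, of 19 tested each, beside 16.5% and 9.87%, 19.2% and 13.2%, and 27.4% and 29.3% of all genes.

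Over the 20 samples of the Bmp table, the genes whose log2 levels followed each member most closely are given as a description, since the samples share ligands and controls. Duox2 was most like Tcp11l1 (Pearson r = 0.963) and Tspan2 (0.962), and Duoxa2 most like Fam43a (0.980) and F3 (0.975). Nox1 was most like Casd1 (0.970) and Htr4 (0.959). Among the peroxidases, Gpx1 was most like Ogfr (0.972) and Rassf1 (0.972), Gpx2 like Fbxo21 (0.983) and Rbm38 (0.982), and Gpx4 like Atp5md (0.982) and Ndufa6 (0.974). Hmox1 was most like Atf3 (0.956), a stress-induced transcription factor, and Oga (0.941). Nqo1 was most like Tsku (0.985) and Dolpp1 (0.954), and Txnrd1 like Gnai3 (0.986) and Ubxn2a (0.986). The closest gene to Gclc of 11846 compared was Gclm (0.850), the modifier subunit of the same enzyme, followed by Tspan15 (0.835). Gclm was at 2170 to 2810 normalized counts in the controls and 4890 to 5470 with Bmp4 (1.09, SE 0.13, adjusted p = 1.1e-06).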

How the data were processed

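Gene expression was measured by RNA-seq of mRNA libraries. Per the submitters' processing notes Trim Galore, Salmon, DESeq2 and GRCm39 were used, and their versions and roles are not given in the sources used here. The deposited signal of the Bmp table was counts divided by a size factor per sample, kept to 3 significant digits. Each value of a low gene was a whole multiple of 1 step (100% of 180721 values at or below 20 reads, within 0.51%), which gave back the reads. The deposited values of the Tgfb and mesenchymal tables were TPM. The tables were scaled separately, so tests stayed within a table, and 0 columns were left unmapped.

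limma 3.58.1 (R 4.3.3) was run on log2(value + 1) with an intensity trend, for genes at a mean of at least 10 normalized counts or 1 TPM (14746 of 29413 and 12959 of 55416 genes), with all 6 Bmp groups in 1 fit, two-sided, and Benjamini-Hochberg adjustment. The code was checked on simulated data. Alternatives were other pseudocounts, filters and scalings, edgeR 4.0.16 and DESeq2 1.42.0 on the recovered reads, a replicate block, and leaving out each sample. Deviations of same-numbered samples from their group means correlated at 0.150 or more in every pair for Bmp3, Bmp4, Bmp5 and Bmp7 against the controls and for Bmp4 and Bmp5 against Bmp7, so the numbers were taken to pair these samples. The main fit left the pairing out, and values come from it unless the block is named. For Bmp4 against the controls the SE was 0.61 without and 0.25 with the block for Hmox1. For Nqo1 it was 0.30 without and 0.12 with the block. The members and companion lists were chosen with earlier results of these data known. Named companions were the NADPH oxidase partners, of which 1 is not reported here, Nfe2l2, Keap1, and in each other list the 2 genes of smallest p with Bmp2, Bmp4, Bmp7 and Tgfb. Values of those genes for other ligands, and the values of Gclm as the gene most like Gclc, are added for comparison. The symbol Nnt has more than 1 gene ID and was left out.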

Additional observations from a re-analysis of the deposited data

Results flagged for a closer look

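Among the 20 sets of 4 samples examined (10 genes in the controls and with Bmp2), 1 held a sample far from the others. Duox2 in control replicate IV was at 800 normalized counts, while the other 3 controls were between 521 and 542, and the gap was 0.925 of the group's range, above Dixon's 95% limit for 4 samples. Chance flags about 1 in 20 groups. Every sample with Bmp2, Bmp5 or Bmp7 was above this control.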

How the results depend on the processing

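The tally of member results covers those called under at least 1 setting and leaves out Bmp3. Of 1240 recomputed values for 74 such results, 1150 kept their direction and side of the threshold, 55 lost the call, 32 gained it and 3 changed sign. Under all alternatives run, 45 results kept both. The sign changes in the tally were Gpx4 with Bmp2 (-0.13 with the same total per sample, -0.094 with quantile normalization) and Gpx1 with Bmp4 (-0.0066 with quantile normalization). The cause was not tested. Outside the tally, differences never called also changed sign, such as Duox2 with Bmp4 (-0.65 to 0.22) and Nqo1 with Bmp7 (-0.34 to 0.05). Of 122 companion results, all called with the main settings, 104 kept both and 0 changed sign. The total counts of calls that moved by over 1.5 times were these. Leaving out 1 sample gave 2517 to 4301 genes for Bmp5 (3884 with all; lowest without replicate III, 2531 without VI), 0 to 1 for Bmp3 (1 without replicate II), 0 to 9 for Bmp5 against Bmp7 (9 without Bmp5 replicate III; 0 without Bmp5 replicate II or VI or Bmp7 replicate II or III), and 2 to 4 members for Bmp7 (2 without replicate VI). With the replicate block 5 members were called for Bmp5 and 7 for Bmp7, and 6 genes for Bmp5 against Bmp7. For that pair DESeq2 gave 24 genes, edgeR, no filter and a pseudocount of 5 each 4, quantile normalization and the same total 1, and a pseudocount of 0.1 and a filter at 50 each 0. DESeq2 gave 1 gene for Bmp3. Quantile normalization left 5 members for Bmp4 against Bmp7, and a filter at 10 TPM, which tests fewer genes, 3 for Tgfb. Quantile normalization split the Bmp5 calls into 2397 higher and 2413 lower (2429 and 1455 as deposited) and the Bmp7 calls into 2716 and 2938 (2833 and 1940). By direction, the lower calls were 2593 for Bmp5 and 3148 for Bmp7 with the replicate block, 713 and 825 for Bmp5 without its replicates III and VI, and 1210 for Bmp7 without its replicate II. The splits under the same total per sample are given with the results above.

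Same-numbered samples did not all deviate together for Bmp2 (0.018 for replicate III) or Tgfb (0.004 to 0.070), and not every sample correlated best with its own number. With the replicate block Gclc with Bmp2 (adjusted p = 0.027), Nqo1 with Tgfb (0.0067), Gclc with Tgfb (0.014) and Nqo1 between Bmp2 and Bmp7 (1.8e-05) were called. The block lost no call of a member. Depth is unknown for the TPM tables, and Nox1 with Bmp2 or Bmp4 rests on 2 to 21 reads per sample.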

Other observations

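Duodenal mesenchyme of a PdgfraH2BeGFP mouse was measured in 1 sample of fresh cells and 1 of cells after immortalisation with HPV16 E6 and sorting for high eGFP, with no replicate. Gpx1 was at 328 TPM in the fresh and 526 in the immortalised cells, Gpx4 at 419 and 287, Txnrd1 at 98.0 and 144, and Hmox1 at 58.9 and 106. Gclc was at 22.1 and 20.2 and Nqo1 at 12.8 and 8.82 TPM. Gpx2, Nox1 and Duoxa2 were listed at 0 in both, and Duox2 at 0.00973 and 0.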
